A study of Mus musculus with 10 samples.

Results

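The genes described here are 34 nuclear genes that encode subunits of complexes III, IV and V of the mitochondrial respiratory chain, together with cytochrome c. They were listed by symbol for their place in the complexes, with earlier results of these data already known, and all 34 were found among the 55367 genes of the deposited table. Of these, 9 encode subunits of complex III, 10 of complex IV and 14 of complex V, and Cycs encodes cytochrome c. RNA was sequenced from mouse bone marrow cells, labelled BMMC, after the mice had drunk either regular water or water with 1% α-ketoglutarate (α-KG). Each group held 5 libraries, called water 1 to 5 and α-KG 1 to 5 here. The sources used here give no genotype, strain, sex, age or duration of treatment, and the labels do not tie libraries to separate animals. The p-values therefore measure only the spread between these libraries, which may be technical.

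Complex III, the cytochrome bc1 complex, passes electrons from ubiquinol to cytochrome c, a small soluble haem protein of the intermembrane space. Complex IV, cytochrome c oxidase, passes them on to oxygen, and complex V, the ATP synthase, makes ATP from the proton gradient that complexes I, III and IV build. Each of the 3 complexes combines subunits encoded in the nucleus with subunits encoded by mitochondrial DNA. The tricarboxylic acid cycle, of which α-KG is a member, supplies the chain with electrons. In marrow, red cell precursors carry mitochondria and lose them late in maturation, and dividing progenitors also respire.

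Library totals ran from 14291364 to 22490118 estimated counts. The RNAs of the signal recognition particle, Rn7s1 and Rn7s2, took 7.56% to 24.2% of the counts in water and 24.0% to 31.0% in α-KG. The 34 subunit genes together took 0.100% to 0.183% of the counts in water and 0.0764% to 0.117% in α-KG. Levels are therefore given as CPM, counts per 1000000 counts of a library after TMM scaling, which sets library sizes by the bulk of the genes. Erythroid markers were the most abundant of the marker lists checked, with summed levels of 30756 to 75852 CPM in water and 36604 to 125690 CPM in α-KG, and skeletal muscle markers summed to 3.19 to 11.2 CPM over all 10 libraries. Xist (258 to 785 CPM) and the Y-linked gene Ddx3y (13.5 to 28.0 CPM) were both detected in each of the 10 libraries.

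None of the 34 subunit genes passed the test between α-KG and water. By edgeR's quasi-likelihood test with Benjamini-Hochberg adjustment over the 15126 genes tested, 0 of 34 were called at an adjusted p under 0.05, where 2.73% of all genes tested were called (2.39% higher and 0.344% lower in α-KG). At an unadjusted p under 0.05 there were 4 of 34 (11.8%), Cyc1, Cycs, Cox7a2 and Atp5o, all lower in α-KG, against 27.8% of all genes tested in either direction and 11.5% lower, a share near theirs. DESeq2 and limma voom also called 0 of 34, with 5 and 3 at an unadjusted p under 0.05 and with 10.4% and 1.77% of the genes they tested called. All 34 genes passed the filter on low counts, and their adjusted p ran from 0.103 to 0.993.

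The fold changes were small and mostly of one sign. The log2 fold change, α-KG over water, was below 0 for 29 of the 34 genes and above 0 for Uqcrc2, Cox5a, Cox6c, Atp5g2 and Atp5j, where 48.3% of all genes tested lay below 0. Its median over the 34 genes was -0.18, within a range of -0.64 to 0.38, and the median over all genes tested was 0.02. These genes vary together from library to library, so the count of signs is a description and has no test. The 95% interval lay within a 2-fold change in either direction for 33 of the 34 genes, the exception being Cox7a2, whose interval reached -1.12. Intervals left out 0 for 4 genes, the same 4 as above, before any adjustment for the number of genes. The 5 values of the groups overlapped for every one of the 34 genes, while they did not overlap for 5.65% of all genes tested. In bulk RNA, fewer cells of a type and less RNA per cell cannot be told apart.

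**Figure D1:**
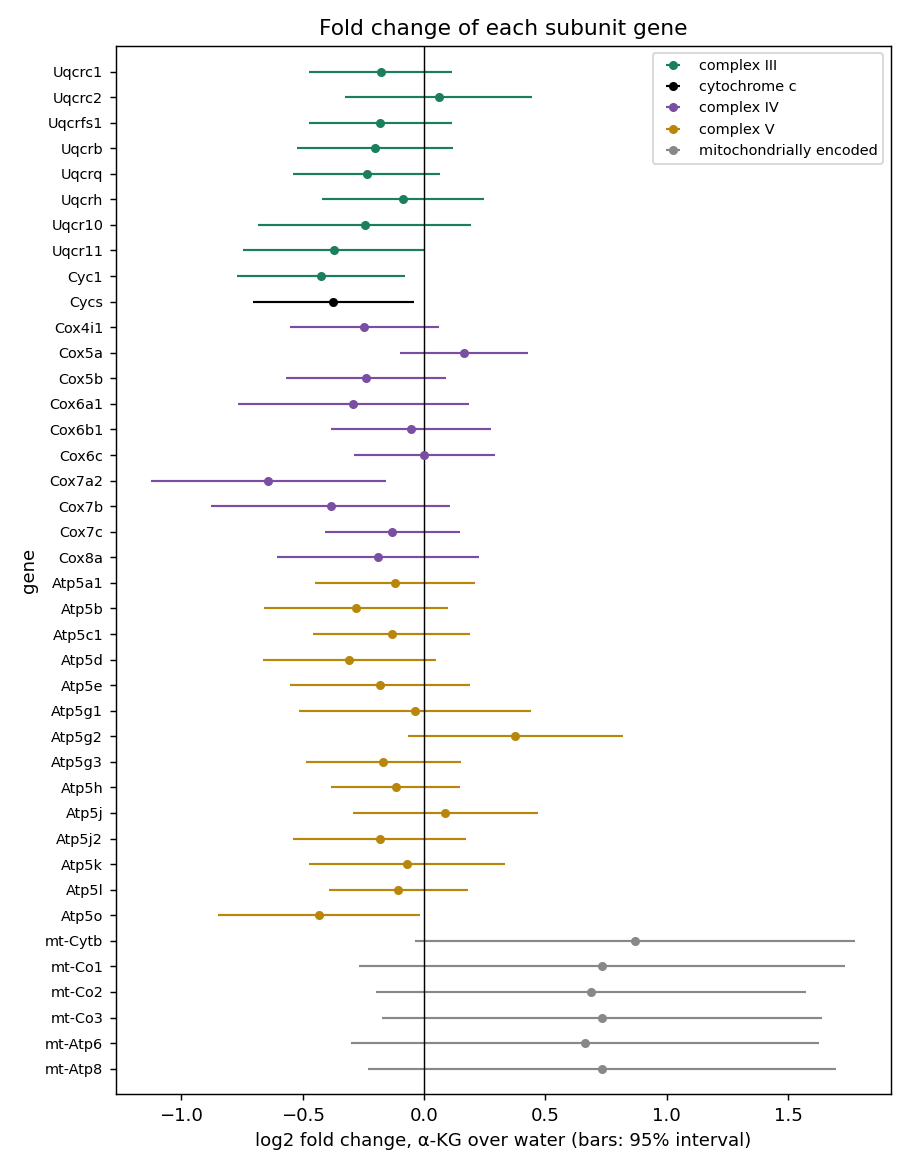
Log2 fold change, α-KG over water, of the 34 nuclear subunit genes and of 6 mitochondrially encoded subunits of the same complexes (points), with 95% intervals from edgeR (bars), coloured by complex. Of the 34 nuclear genes, 29 points lie to the left of 0 and 4 intervals leave out 0, and all 6 mitochondrial points lie to the right with wide intervals.

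In complex III, 8 of 9 genes lay below 0, with a median log2 fold change of -0.20, and 0 were called. Cyc1 encodes cytochrome c1, the haem subunit that hands electrons to cytochrome c (chromosome 15, 76343523 to 76346260, plus strand, build GRCm38). Its level was 37.7, 27.5, 26.3, 29.9 and 40.5 CPM in water 1 to 5 and 23.4, 28.4, 20.7, 19.4 and 28.7 CPM in α-KG 1 to 5. Water 1 and water 5 stood highest, and α-KG 2 and α-KG 5 overlapped the lower water libraries. The means were 32.4 ± 6.39 and 24.1 ± 4.31 CPM (SD, n = 5), a log2 fold change of -0.42 ± 0.16 (SE) with an edgeR adjusted p of 0.121.

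Uqcr11 encodes a small subunit of complex III. Its level was 11.8, 9.04, 10.4, 12.2 and 17.3 CPM in water 1 to 5 and 7.35, 10.3, 9.45, 10.1 and 9.79 CPM in α-KG 1 to 5. Water 5 was far above the others, and the α-KG values lay among or under the remaining water values (log2 fold change -0.37 ± 0.17 SE, edgeR adjusted p = 0.184). Uqcrc1, which encodes the larger of the core proteins on the matrix side, had the highest level in complex III. It was at 60.4, 44.4, 42.3, 53.2 and 65.1 CPM in water and at 43.7, 52.6, 46.3, 44.2 and 47.7 CPM in α-KG. The α-KG values were narrowly spread and lay within the water range, with means of 53.1 ± 9.86 and 46.9 ± 3.59 CPM (SD, n = 5).

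The other 6 genes of complex III had log2 fold changes from -0.24 to 0.06. Uqcrfs1, which encodes the Rieske iron-sulfur protein that takes electrons from ubiquinol, had means of 24.9 ± 4.21 CPM in water and 21.98 ± 2.50 CPM in α-KG (SD, n = 5). Uqcrc2, the other core protein, was the only gene of the complex above 0, at 17.4 ± 3.48 and 18.3 ± 3.69 CPM. Uqcrh, the hinge protein next to cytochrome c1, differed little between the groups, at 38.2 ± 4.08 and 36.0 ± 7.75 CPM. Among the small subunits, Uqcrb, Uqcrq and Uqcr10 had log2 fold changes of -0.20, -0.24 and -0.24.

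Cycs encodes the somatic form of cytochrome c, which carries electrons from complex III to complex IV and, once released into the cytosol, helps to activate caspases (chromosome 6, 50562563 to 50566538, minus strand, GRCm38). Its level was 13.4, 10.6, 8.14, 9.70 and 10.3 CPM in water 1 to 5 and 7.97, 8.29, 8.32, 9.41 and 6.33 CPM in α-KG 1 to 5. Only water 3 lay within the α-KG range, and the other 4 water libraries were above it. The means of 10.4 ± 1.90 and 8.07 ± 1.11 CPM (SD, n = 5) gave a log2 fold change of -0.37 ± 0.15 (SE) and an edgeR adjusted p of 0.143. The testis form, Cyct, had a count of 0 in all 10 libraries.

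In complex IV, 8 of 10 genes lay below 0, with a median log2 fold change of -0.21, and 0 were called. Cox7a2 encodes the form of subunit VIIa found in most tissues (chromosome 9, 79755361 to 79759878, minus strand, GRCm38). Its level was 14.6, 10.7, 7.92, 13.8 and 18.3 CPM in water 1 to 5 and 5.76, 10.5, 7.91, 9.79 and 7.99 CPM in α-KG 1 to 5. Of the water libraries, only water 3 lay within the α-KG range, and α-KG 1 was the lowest of all 10. The means of 13.1 ± 3.95 and 8.38 ± 1.84 CPM (SD, n = 5) gave the lowest log2 fold change of the 34 genes, -0.64 ± 0.22 (SE), with an edgeR adjusted p of 0.103. Without water 3 the log2 fold change was -0.77 and the adjusted p 0.0481, the only setting of those tried in which any of the 34 genes was called, and 4.15% of all genes were called there.

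Cox4i1 encodes the largest nuclear subunit of complex IV, with which assembly around the mitochondrial core begins (chromosome 8, 120668222 to 120674207, plus strand, GRCm38). Its level was 72.3, 71.2, 60.5, 74.2 and 84.7 CPM in water 1 to 5 and 50.6, 76.4, 60.04, 52.6 and 66.4 CPM in α-KG 1 to 5. α-KG 2 reached the upper water values, while α-KG 1, 3 and 4 were below all of water. The means were 72.6 ± 8.59 and 61.2 ± 10.6 CPM (SD, n = 5; log2 fold change -0.25 ± 0.14 SE, edgeR adjusted p = 0.268). Cox7b, a small X-linked subunit, was at 12.3, 7.60, 5.33, 9.61 and 12.01 CPM in water and at 5.06, 8.39, 7.56, 8.17 and 6.76 CPM in α-KG. Here water 3 was nearly as low as α-KG 1, and the groups overlapped widely (log2 fold change -0.38 ± 0.23 SE, edgeR adjusted p = 0.278).

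The other 7 genes of complex IV had log2 fold changes from -0.29 to 0.16. Cox5a, which joins Cox4i1 early in assembly, was above 0, with means of 13.9 ± 1.82 CPM in water and 15.6 ± 1.54 CPM in α-KG (SD, n = 5) and a 95% interval of -0.10 to 0.43. Cox6c was at 22.03 ± 3.36 and 22.04 ± 2.86 CPM, a log2 fold change of 0.00 ± 0.13 (SE). Cox5b, which holds a zinc ion, and Cox6a1, the form of subunit VIa found outside heart and skeletal muscle, had log2 fold changes of -0.24 and -0.29. Cox6b1, at the contact between the monomers of the dimer, was at -0.05, and the small membrane subunits Cox7c and Cox8a were at -0.13 and -0.19.

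**Figure D2:**
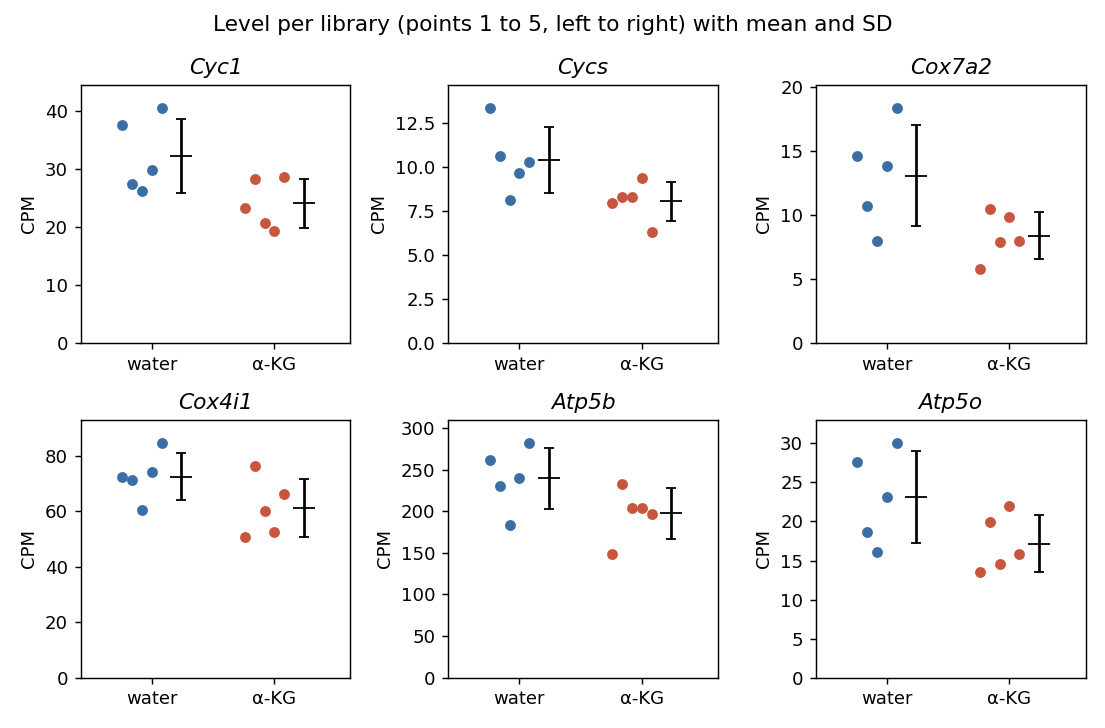
CPM of 6 of the subunit genes in each library (points, libraries 1 to 5 from left to right within a group), with the group mean and SD beside them. The 5 α-KG values overlap the 5 water values in every panel. For Cycs and Cox7a2 only water 3 lies within the α-KG range.

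In complex V, 12 of 14 genes lay below 0, with a median log2 fold change of -0.13, and 0 were called. Its catalytic head holds the α and β subunits, encoded by Atp5a1 and Atp5b, which together made up 36.9% of the counts of the 34 genes. Atp5b had the highest level of all of them (chromosome 10, 128083273 to 128090391, plus strand, GRCm38). It was at 261, 231, 184, 240.2 and 282 CPM in water 1 to 5 and at 149, 233, 204, 204 and 197 CPM in α-KG 1 to 5. Every α-KG library lay below the water mean, but only α-KG 1 lay below the lowest water library. The means were 239.5 ± 37.0 and 197 ± 30.5 CPM (SD, n = 5; log2 fold change -0.28 ± 0.17 SE, edgeR adjusted p = 0.300). Atp5a1, which encodes the non-catalytic α subunit that alternates with β in the head, had means of 198 ± 25.7 and 182 ± 21.2 CPM.

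Among the remaining parts of the head and central stalk, Atp5d, the δ subunit, was at 52.8, 40.8, 34.04, 47.0 and 57.3 CPM in water 1 to 5 and at 30.3, 45.6, 31.7, 36.9 and 42.8 CPM in α-KG 1 to 5. All α-KG values lay below the water mean and α-KG 1 and α-KG 3 below all of water (log2 fold change -0.31 ± 0.16 SE, edgeR adjusted p = 0.234). Atp5c1, the rotating γ shaft, and Atp5e, the ε subunit at its foot, had log2 fold changes of -0.13 and -0.18. Atp5o encodes OSCP, the protein that ties the peripheral stalk to the top of the head (chromosome 16, 91925214 to 91931687, minus strand, GRCm38). Its level was 27.6, 18.6, 16.1, 23.2 and 30.0 CPM in water 1 to 5 and 13.5, 19.9, 14.5, 21.95 and 15.8 CPM in α-KG 1 to 5. The upper α-KG libraries, α-KG 2 and α-KG 4, lay within the water range and the other 3 lay below it. The means of 23.1 ± 5.87 and 17.2 ± 3.63 CPM (SD, n = 5) gave a log2 fold change of -0.43 ± 0.19 (SE) and an edgeR adjusted p of 0.168. The annotation holds a second, longer entry under the symbol Atp5o (chromosome 16, 91684398 to 91926982), and the sources used here do not say which entry the deposited row counts. Atp5h and Atp5j, the other stalk subunits of the set, had log2 fold changes of -0.12 and 0.09, and Atp5j2, Atp5k and Atp5l, which sit in the membrane, had -0.18, -0.07 and -0.10.

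Subunit c, which forms the rotating ring in the membrane, is encoded by 3 nuclear genes whose mature protein is the same. The precursors of 136, 146 and 141 residues share their last 78 residues, so the genes differ there only in the DNA. Over the 234 bases that encode these residues, Atp5g1 and Atp5g2 were 84.6% identical, Atp5g1 and Atp5g3 78.6%, and Atp5g2 and Atp5g3 77.4%. The first 90 of these bases are shown from the GENCODE M21 transcripts, with the 26 positions at which the 3 differ in capitals. Such positions, here and elsewhere in the transcripts, allow reads of these genes to be told apart.
Atp5g1: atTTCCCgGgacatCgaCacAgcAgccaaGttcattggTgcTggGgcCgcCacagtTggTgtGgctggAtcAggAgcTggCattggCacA
Atp5g2: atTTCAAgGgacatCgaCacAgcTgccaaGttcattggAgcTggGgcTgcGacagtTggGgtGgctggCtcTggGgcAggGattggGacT
Atp5g3: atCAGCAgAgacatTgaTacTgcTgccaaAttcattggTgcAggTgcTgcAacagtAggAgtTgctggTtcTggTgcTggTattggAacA

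In the counts as deposited, Atp5g3 held the largest share of subunit c in every library. It was at 24.9, 21.8, 21.8, 21.7 and 31.9 CPM in water 1 to 5 and at 20.03, 26.8, 19.7, 24.1 and 18.0 CPM in α-KG 1 to 5. Atp5g1 was at 13.8, 6.80, 9.17, 11.6 and 16.9 CPM in water and at 9.49, 11.7, 10.6, 14.8 and 10.1 CPM in α-KG. For Atp5g3, α-KG 1, 3 and 5 lay below all of water, and for Atp5g1 all 5 α-KG values lay within the water range. The log2 fold changes were -0.17 ± 0.15 for Atp5g3 and -0.04 ± 0.22 for Atp5g1 (SE).

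Atp5g2 had the highest log2 fold change of the 34 genes and, as deposited, the lowest level of the 3 subunit c genes. It was at 3.96, 3.48, 4.09, 2.34 and 4.504 CPM in water 1 to 5 and at 3.97, 3.85, 4.60, 5.13 and 6.40 CPM in α-KG 1 to 5. Water 4 was the lowest and α-KG 5 the highest of all 10, and α-KG 1 and α-KG 2 lay within the water range. The means of 3.67 ± 0.829 and 4.79 ± 1.04 CPM (SD, n = 5) gave a log2 fold change of 0.38 ± 0.20 (SE) and an edgeR adjusted p of 0.242. As a share of the counts of the 3 genes, Atp5g2 made up 9.36% ± 2.02 in water and 12.9% ± 3.53 in α-KG, Atp5g1 28.8% ± 4.998 and 29.9% ± 2.36, and Atp5g3 61.9% ± 3.68 and 57.2% ± 4.39 (SD, n = 5). The Atp5g2 share was 18.6% in α-KG 5 while the remaining α-KG libraries held 9.06% to 13.2%, against 6.56% to 11.7% in water.

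The level of Atp5g2, its rank and its share rest on how reads were divided among copies of the gene. A coding sequence at least 95% identical to their own over at least 80% of its length was found elsewhere in the annotation for 13 of the 34 genes, 32 copies in all, most of them processed pseudogenes. Copies held over 10% of the summed counts of gene and copies for 4 genes. They held 71.9% for Atp5g2 (mainly Gm10175), 38.6% for Cycs (mainly Gm10053), 36.2% for Atp5l (mainly Gm10221) and 19.6% for Cox7c (Gm12338), and each of these copies was 100% identical over the aligned coding sequence. The counts of these 4 genes are therefore uncertain. With the copies added, Atp5g2 was at 12.54 ± 2.29 CPM in water and 16.9 ± 1.52 CPM in α-KG (SD, n = 5; log2 fold change 0.43 ± 0.14 SE, edgeR adjusted p = 0.0857), and Cycs had a log2 fold change of -0.29 ± 0.14 (SE) with an adjusted p of 0.189. With copies added, Atp5g2 made up 25.2% ± 1.99 of subunit c counts in water and 33.6% ± 5.18 in α-KG, Atp5g1 25.7% ± 3.67 and 23.8% ± 2.17, and Atp5g3 49.2% ± 3.72 and 42.6% ± 4.26 (SD, n = 5). Atp5g2 was then above Atp5g1 in the α-KG mean, and its shares of 22.9% to 27.7% in water and 27.1% to 38.5% in α-KG still overlapped. Gm10175 alone had a log2 fold change of 0.46 ± 0.16 (SE) and an adjusted p of 0.102. In the fit with copies added 0 of 34 genes were called, and among the 30 genes without large copy counts 26 lay below 0, with a median of -0.18.

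Libraries of a group differed from each other by more than the group means did. The summed level of the 34 genes was 1270, 1087, 940.5, 1200 and 1425 CPM in water 1 to 5 and 862, 1189, 1023, 1038 and 1062 CPM in α-KG 1 to 5. Water 3 was lower than 4 of the 5 α-KG libraries and water 5 was the highest, around means of 1185 ± 183 and 1035 ± 117 CPM (SD, n = 5). α-KG 1 was the lowest of all 10 libraries for 18 genes and the lowest of its group for 27, and water 3 was the lowest of its group for 28. Water 5 was the highest of all 10 for 22 genes and water 1 for 6. The genes for which α-KG 1 was not the lowest of its group were Cyc1, Cycs, Atp5a1, Atp5e, Atp5g2, Atp5g3 and Atp5j, of which Cyc1 and Atp5a1 were lowest in α-KG 4. Without α-KG 1 the median log2 fold change of the 34 genes was -0.12 and 26 lay below 0, without water 5 it was -0.10 with 26, and without water 3 it was -0.25 with 31.

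**Figure D3:**
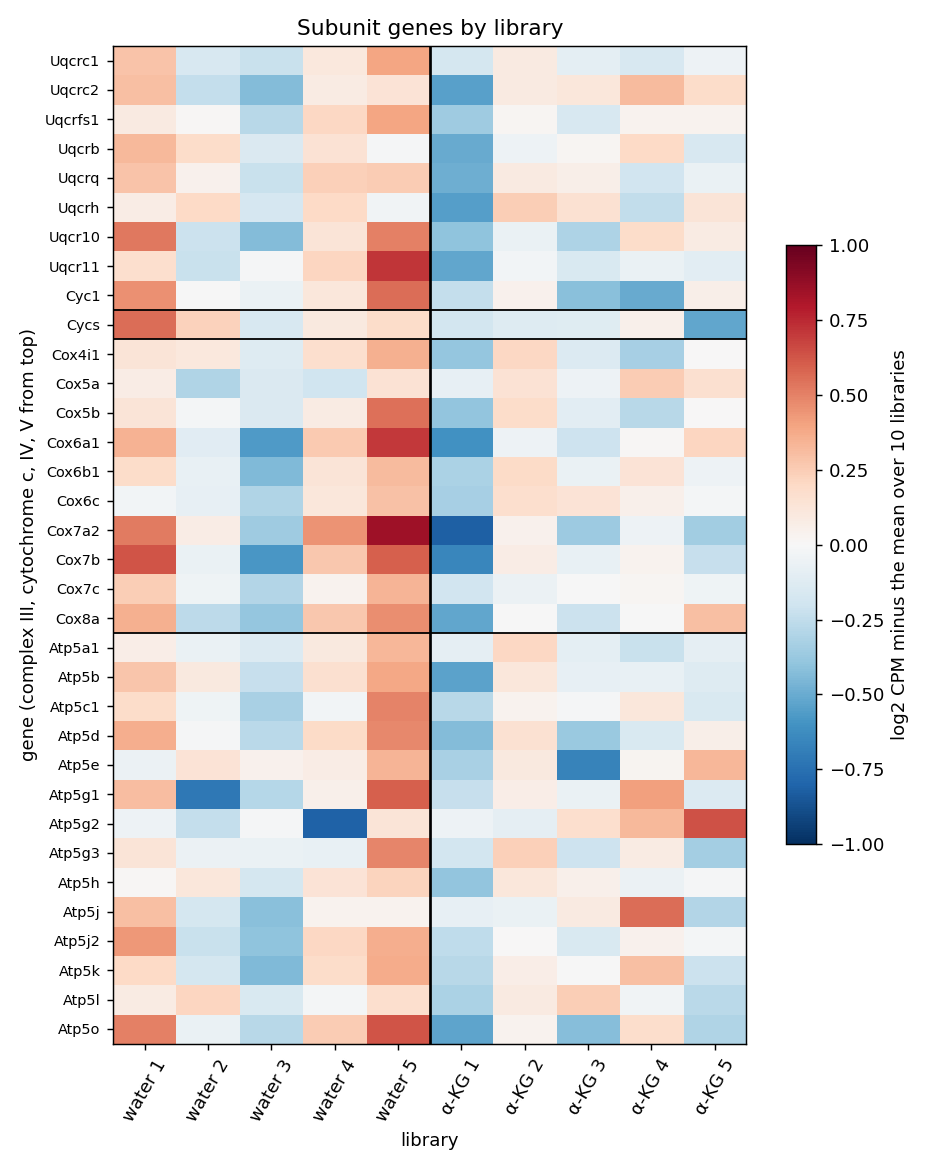
Log2 CPM of each of the 34 genes in each library minus that gene's mean over the 10 libraries, with genes grouped by complex and water left of the vertical line. Columns differ as a block: water 5 and water 1 are mostly high, water 3 and α-KG 1 are mostly low, and α-KG 1 is the lowest of the 10 for 18 genes.

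By summed level within each group, genes of dividing cells ranked the libraries as the subunit genes did, and markers of red cell precursors shared only their low ends. The 19 cell cycle genes checked summed to 3790 to 5387 CPM in water and to 1317 to 4049 CPM in α-KG. Within each group the libraries had the same order by this sum as by the summed subunit genes, from water 5 down to water 3 and from α-KG 2 down to α-KG 1. All 19 lay below 0, with a median log2 fold change of -0.70, and 0 were called by edgeR. All 19 had an unadjusted edgeR p under 0.05, against 27.8% of all genes tested in either direction and 11.5% lower. These genes also vary together from library to library, so their counts are descriptions and not separate results. The 13 erythroid markers tested had a mean log2(CPM + 1) of 9.65 to 10.7 in water and 8.25 to 10.7 in α-KG, lowest in α-KG 1 and, within water, in water 3. Elsewhere their order differed, since water 2, with 10.7, was the highest of the 10 and water 5, the highest for the subunit genes, was second lowest in water with 10.3. By summed CPM, as in the sums of the other 2 sets, the erythroid order was another. Water 3 (30756 CPM) was then the lowest of the 10 and α-KG 3 (125690 CPM) the highest, with α-KG 1 (36604 CPM) still the lowest of its group. Of these markers, 0 were called and 8 lay below 0, while Alas2 and the globin genes Hbb-bs, Hbb-bt, Hba-a1 and Hba-a2 lay above 0. Ahsp was listed but not found in the table by symbol.

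Monocyte markers moved the other way. Of 9, 8 rose in α-KG by edgeR and the ninth, Ly6c2, had an adjusted p of 0.0885, where 2.39% of all genes tested were called higher. Their summed level was 210.0 to 281 CPM in water and 287 to 574 CPM in α-KG, without overlap. These calls, like those of all genes, were 0 with water 1, water 2, water 4 or α-KG 4 left out. Of the macrophage markers 3 of 9 rose, of the T and NK cell markers 2 of 7, and of the neutrophil, B cell, megakaryocyte and skeletal muscle markers 0 of 10, 0 of 7, 0 of 6 and 0 of 4. α-KG 1, the library lowest for 18 of the subunit genes, stood apart in B cell markers, with a sum of 439 CPM against 79.8 to 170 CPM in the other 9 libraries, and had the highest sum of megakaryocyte markers, 66.6 CPM. The part of this difference in the low values of α-KG 1 was not tested. With the mean of the monocyte markers per library as a covariate the median log2 fold change of the 34 subunit genes was 0.056 and 11 lay below 0, and with that of the cell cycle genes it was 0.16 and 2 lay below 0. With the erythroid mean it was -0.09 and 25 lay below 0. Because the monocyte and cell cycle means themselves differ between the groups, their part and that of α-KG cannot be told apart in these fits, in which 0 of all genes tested were called.

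**Figure D4:**
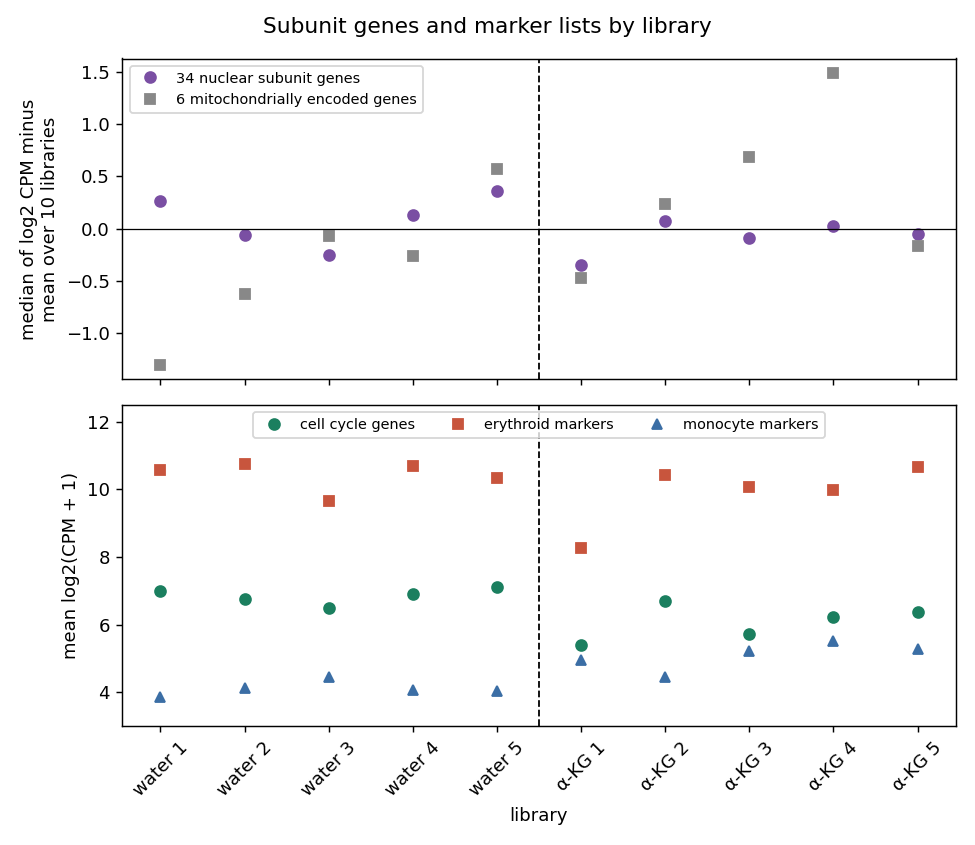
Top, median over the 34 nuclear subunit genes and over 6 mitochondrially encoded subunit genes of log2 CPM minus the gene's mean over the 10 libraries. Bottom, mean log2(CPM + 1) of cell cycle genes, erythroid markers and monocyte markers, with water left of the dashed line. The nuclear subunit genes, the cell cycle genes and the erythroid markers all have their lowest value in α-KG 1, and the mitochondrial genes range more widely, from water 1 to α-KG 4.

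The subunits of the same complexes that mitochondrial DNA encodes differed from most of the nuclear ones in the sign of their fold change. These are mt-Cytb of complex III, mt-Co1, mt-Co2 and mt-Co3, the core of complex IV, and mt-Atp6 and mt-Atp8 of complex V. All 6 had log2 fold changes above 0, from 0.66 to 0.87, where 7816 of the 15126 genes tested lay above 0. By edgeR 0 were called, with adjusted p from 0.194 to 0.333 and 0 at an unadjusted p under 0.05. These 6 genes vary together from library to library, so their shared sign is a description and has no test. mt-Co1 was at 2903, 5587, 7064, 6853 and 11584 CPM in water 1 to 5 and at 5842, 9552, 13746, 20627 and 6723 CPM in α-KG 1 to 5. Water 1 was the lowest and α-KG 4 the highest of the 10, and the groups overlapped widely. mt-Cytb was at 639, 1089, 1664, 1397 and 2382 CPM in water and at 1646, 2187, 2861, 4941 and 1456 CPM in α-KG, the same order at both ends. mt-Co2 ran from 468 to 1835 CPM in water and from 963 to 3243 CPM in α-KG, mt-Co3 from 558 to 1767 and from 883 to 3508, mt-Atp6 from 594 to 2135 and from 813 to 4026, and mt-Atp8 from 82.8 to 287 and from 103 to 557. Water 1, the lowest for these genes, was among the highest for the nuclear subunit genes. Other libraries were shared extremes by summed level. Water 5 was the highest water library for both the mitochondrial (19989 CPM) and the nuclear genes (1425 CPM). α-KG 1 was the lowest α-KG library for both, at 10250 and 862 CPM.

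As a ratio of levels, the summed mitochondrially encoded subunits stood at 4.13 to 14.02 times the summed 34 nuclear genes in water and at 11.2 to 35.5 times in α-KG. The highest water ratio was in water 5, and 3 of the 5 α-KG libraries lay below it. The means were 9.96 ± 3.98 and 18.9 ± 10.3 (SD, n = 5), so the groups overlapped.

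Other genes of the same machinery, listed by function, did not pass the test either. Of 15 further nuclear genes for subunits, tissue forms and associated proteins, 9 were tested and 0 were called. Cox6b2, a form of Cox6b best known from testis, was at 9.30 ± 2.75 CPM in water and 5.88 ± 1.55 CPM in α-KG (SD, n = 5; log2 fold change -0.65 ± 0.22 SE, edgeR adjusted p = 0.0991). Atpif1, the protein that blocks ATP hydrolysis by complex V and is abundant in erythroid cells, was at 110, 124, 95.2, 139 and 138 CPM in water 1 to 5 and at 36.2, 119, 57.7, 71.4 and 93.0 CPM in α-KG 1 to 5. α-KG 1 was again the lowest and α-KG 2 lay within the water range (log2 fold change -0.68 ± 0.27 SE, edgeR adjusted p = 0.130). The tissue forms Cox4i2, Cox7a1, Cox7b2, Cox8b, Cox8c and Cyct were left out by the filter, with at most 4 counts in any library.

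Of 32 assembly factors 31 were tested and 0 were called, with 11 below 0 and 20 above 0. Pet100, needed to build complex IV, was at 6.89, 6.80, 6.47, 4.45 and 6.65 CPM in water 1 to 5 and at 3.38, 4.84, 4.60, 3.71 and 2.95 CPM in α-KG 1 to 5. Only water 4 lay within the α-KG range (log2 fold change -0.68 ± 0.18 SE, edgeR adjusted p = 0.0604). Cox11, which helps to place copper in mt-Co1, had a log2 fold change of -0.74 ± 0.26 (SE) and an adjusted p of 0.107. Of 13 regulators of these genes and of mitochondrial transcription, 12 were tested and 0 were called. Of these regulators 8 lay below 0 and 4 above 0. Nrf1, nuclear respiratory factor, which activates many respiratory genes, was at 52.1, 50.3, 42.9, 51.6 and 55.3 CPM in water and at 28.8, 46.5, 28.8, 38.9 and 41.7 CPM in α-KG. Only α-KG 2 lay within the water range (log2 fold change -0.45 ± 0.15 SE, edgeR adjusted p = 0.0943). Tfb2m, a factor of mitochondrial transcription, had -0.36 ± 0.15 (SE; adjusted p = 0.143).

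The neighbouring complexes of the chain were compared with the same fit. For complex II, 0 of 4 genes were called. Sdha had a log2 fold change of -0.19 ± 0.14 and Sdhb of 0.07 ± 0.13 (SE). For complex I, 0 of 36 nuclear subunit genes were called and 27 lay below 0, with a median of -0.17, close to the -0.18 of the 34 genes of complexes III to V and cytochrome c.

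The genes lie on 16 chromosomes and have short transcripts. The median length of the transcript chosen for each was 729.5 bases, against 2920.5 bases for the protein-coding genes tested. Per kilobase of that transcript, the highest water levels were those of Atp5b at 125 CPM, Cox4i1 at 97.4, Atp5a1 at 79.96, Uqcrh at 69.8 and Atp5h at 67.0. The lowest were those of Cycs at 3.34 and Atp5g1 at 2.47 CPM per kilobase, genes for which long transcripts of 3123 and 4715 bases were chosen. Within complex V the transcript levels per length spanned Atp5g1 to Atp5b, a span that depends on the transcript chosen for each gene. The products are needed in fixed proportions within a complex, which these levels do not measure. For 6 of the 34 genes (17.6%), a protein-coding gene on the other strand started up to 1000 bases upstream of their start. The share was 10.3% among the protein-coding genes tested. Another protein-coding gene overlapped on the opposite strand for 7 genes, Uqcrc2, Uqcrb, Cox4i1, Cox6c, Atp5a1, Atp5d and Atp5j. The sources used here do not say whether the counting used strand, so reads of these pairs may not have been told apart.

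Promoter windows of 300 bases, 250 before and 50 after the RefSeq start (GRCm38.p6), were found for 27 of the 34 genes and searched on both strands. The NRF1 motif reads nearly the same on both strands and is in capitals in the stretches shown here. It was in 8 of 27 genes (29.6%), Atp5c1, Atp5g2, Atp5g3, Atp5h, Atp5k, Atp5o, Cox6a1 and Uqcrc1. The share was 11.6% among the tested protein-coding genes with a window and 5.19% among all genes with a window. The motif of ETS factors such as GABP, CCGGAAG, was in 10 (37.0%) against 20.5%, the YY1 motif AAGATGG in 3 (11.1%) against 8.55%, and the ERR motif TCAAGGTCA in 1 (3.70%), Atp5g3, against 0.336%. The SP1 motif GGGCGG was in 8 (29.6%) against 67.9%, and TATAAA in 1 (3.70%), Atp5l, against 8.59%. Motifs were counted separately, so a window can hold several. These matches describe the letters in the windows and are not binding sites. The stretches around the NRF1 motif that lie upstream of the start and outside the gene's exons are shown for Cox6a1, with 2 matches, and Atp5h, 5′ to 3′ on the gene's strand (minus for both), with the motif in capitals.
Cox6a1, chr5:115349086-115349145: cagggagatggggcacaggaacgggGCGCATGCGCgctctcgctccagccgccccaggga
Cox6a1, chr5:115349041-115349100: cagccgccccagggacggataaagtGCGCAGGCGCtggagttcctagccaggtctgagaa
Atp5h, chr11:115420026-115420085: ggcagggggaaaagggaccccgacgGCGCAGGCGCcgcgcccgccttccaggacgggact
The motif begins 162 and 117 bases before the start of Cox6a1 and 141 bases before that of Atp5h. Both genes lay below 0, with log2 fold changes of -0.29 and -0.12. Of the 8 genes with the motif, 7 lay below 0 and Atp5g2 lay above it. This share is near that of the whole set, in which 29 of 34 (85.3%) lay below 0.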

How the data were processed

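Total RNA of bone marrow cells was depleted of ribosomal RNA and sequenced, per the labels' protocols. The submitters' processing notes name bcl2fastq, DRAGEN and build GRCm38, without roles. The sources used here name no quantifier, annotation release or strand setting. Expected counts per gene were deposited, unscaled between libraries, and 10.3% of the values were not whole. Replicates were numbered in accession order.

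Counts were rounded and genes kept by filterByExpr (minimum count 10, total 15), leaving 15126 of 32256 genes above 0. The two-sided quasi-likelihood F test of edgeR 4.0.16 in R 4.3.3 (TMM, robust, 10 libraries, no covariate) was adjusted by Benjamini-Hochberg at 0.05. The common biological coefficient of variation was 0.254, and the SE was taken from the log2 fold change and its F statistic. The steps were tested on simulated data. Alternatives were other scalings, no filter, DESeq2 1.42.0, limma voom 3.58.1, marker means as covariates, and each library left out. Adding near copies (BLAST+ 2.17.0), also for the subunit c shares, was chosen after seeing the data. Transcripts came from GENCODE M21. The 34 genes and all lists were chosen with earlier results of these data known. Values in every library are given for the 3 genes with the smallest unadjusted p and the gene with the highest level of complex III with Cycs, complex IV and complex V, for the subunit c genes, and for some of the genes named from the other lists, of which the 2 with the smallest unadjusted p were named. Markers, Xist and Ddx3y, and overlapping genes were named beside these.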

Additional observations from a re-analysis of the deposited data

Results flagged for a closer look

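Among the 34 subunit genes and 6 mitochondrially encoded genes, 80 groups of 5 values were checked for a library standing apart. For Atp5a1 in α-KG, α-KG 2 was at 218 CPM, while the other 4 libraries lay between 161 and 177 CPM. The gap was 0.717 of the group's range, just above the limit of 0.71. Chance gives such a gap in about 1 in 20 groups, and 1 of 80 showed it. The water libraries lay between 171 and 238 CPM, so α-KG 2 was within their range.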

How the results depend on the processing

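The median log2 fold change of the 34 genes was -0.18; it stayed below 0 with each library left out (-0.25 to -0.10) and under the other scalings, filter and tests, and was 0.056 with the monocyte mean and 0.16 with the cell cycle mean as a covariate. Of the 34 genes 0 were called in all settings except without water 3, where Cox7a2 was (0 to 1 over the libraries left out). The sign of 20 genes changed with the monocyte and of 27 with the cell cycle covariate, and of 0 to 4 in any other setting. The number of all genes called was 413 and depended on the setting. It was 50 with library totals without Rn7s1, Rn7s2 and CT010467.1, 1657 with DESeq2 (969 higher, 688 lower, against 361 and 52), 267 with limma voom, 258 with the erythroid covariate, and 0 with the monocyte and 0 with the cell cycle covariate (169 and 767 at an unadjusted p under 0.05). It ran from 0 to 2683 with each library left out, being 0 without water 1, water 2, water 4 or α-KG 4 (3232 to 3672 at an unadjusted p under 0.05), and otherwise 72 (water 5 left out), 632 (water 3), 139 (α-KG 1), 37 (α-KG 3), 149 (α-KG 5) and 2683 or 17.4% (α-KG 2), the last with 0 of the 34 genes called. The cause was not tested. The difference in the Atp5g2 share was 3.50 percentage points on rounded counts and 3.52 on unrounded counts, as in the shares given above. On rounded counts it ran from 2.08 without α-KG 5 to 4.44 without α-KG 2, and was 8.43 with near copies added. No paired analysis was possible because water and α-KG samples have no number in common and nothing in the labels ties one to another. Standard errors of the 34 genes ran from 0.12 to 0.23 on the log2 scale, which limits the size of a difference that 5 libraries a group can show.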
